A study of Mus musculus with 24 samples.

Results

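The cAMP response element binding protein CREB and the proteins that switch it on were followed here at the level of their mRNAs. The 10 genes were taken by their symbols from the 30270 genes listed in the deposited RNA sequencing tables. They encode the transcription factors CREB1, CREM and ATF1, the CREB-regulated transcription coactivators CRTC1, CRTC2 and CRTC3, the acetyltransferases CBP (Crebbp) and p300 (Ep300), and the salt-inducible kinases SIK1 and SIK2. Each symbol stood for 1 gene in every table, and all 10 genes passed the minimum mean value of 10 in each comparison.

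CREB binds the cAMP response element in promoters. When a receptor raises cAMP, protein kinase A phosphorylates CREB, and phosphorylated CREB recruits CBP and p300, which acetylate histones. The CRTC proteins form a separate switch: SIK kinases phosphorylate them and hold them in the cytoplasm on 14-3-3 proteins, and cAMP and calcium release them to the nucleus, where they bind CREB. Sik1 and Crem are themselves known CREB targets, so both also act as feedback, SIK1 on the CRTCs and the short CREM repressor ICER on CREB sites. In the nucleus accumbens, which receives dopamine, and in the ventral tegmental area (VTA), which supplies it, CREB is known for its part in the response to opioids. Phosphorylation and location are not read by mRNA levels.

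The data came from 12 mice on a C57BL/6 background in 4 groups of 3 mice: wild-type (VDR+/+) mice and mice without the vitamin D receptor (Vdr-/-), each injected intraperitoneally with PBS or with morphine sulfate at 5 mg/kg. Bilateral frozen micropunches of the accumbens and of the VTA were sequenced from every mouse, which gave 24 libraries in 8 groups. Morphine mice were killed 90 min after the injection, whereas the study describes the interval after PBS in 2 ways, the same or shorter, so interval and injection may not be separable. Vdr-/- mice were raised on a diet rich in calcium and lactose, and no such diet is described for the wild-type mice. Ages were not given. The comparisons ask whether morphine moved these mRNAs, whether loss of the receptor did, and whether the 2 regions differed.

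Depth lay between 9328726 and 30184426 gene-assigned reads a library (median 16779763). Vdr itself had 1 to 17 reads in the wild-type and 0 to 17 in the Vdr-/- libraries, so its mRNA could not check the genotype labels. Defining markers fitted the regions: 8 medium spiny neuron markers summed to at least 33475 normalized counts in every accumbens library and at most 4286 in every VTA library, and 7 dopamine neuron markers summed to at least 2904 in the VTA and at most 685 in the accumbens. Markers of tissue outside the target regions were present too. Cortical excitatory neuron markers summed to 6824 to 19932 in the accumbens libraries and 119 to 2637 in the VTA libraries. Choroid plexus markers summed to 1845 in the VTA of Vdr-/- morphine mouse 2.1, against 63 to 311 in the other VTA libraries. The part of such tissue in the differences between regions was not tested. The accumbens library of wild-type PBS mouse 2 stood apart. Its gene ratios to the other accumbens libraries fell with exon length (Spearman's rho -0.31 across genes, against -0.09 to 0.17 in the others), and results that rest on it are given with and without it. Library indexes listed with the samples were repeated between PBS and morphine libraries (5 indexes), and whether the injections were prepared or sequenced as separate batches is not given in the sources used here, so batch and injection cannot be told apart.

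Promoter windows (250 bases before to 50 after the start, RefSeq, GRCm38.p6) were at hand for 7 of the 10 genes. Those of Sik1, Crem and Crtc2 were not, so the known CREB targets Sik1 and Crem were not searched. The full palindromic element TGACGTCA was in none of the 7 and in 1.79% of all 32851 promoters. The shorter element TGACG, searched on both strands and contained in the full one, was in 2 of the 7 and in 20.8% of all promoters. These are matches of letters, not sites of binding. The 3 windows are printed because Sik2 and Atf1 hold the shorter element and Crtc1, the member with the widest difference between regions, does not. All run 5′ to 3′ along the gene, and capitals mark the shorter element on either strand. Sik2 lies on chr9:51009024-51009323, minus strand. Atf1 lies on chr15:100227609-100227908, plus strand. Crtc1 lies on chr8:70439524-70439823, minus strand.

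Sik2: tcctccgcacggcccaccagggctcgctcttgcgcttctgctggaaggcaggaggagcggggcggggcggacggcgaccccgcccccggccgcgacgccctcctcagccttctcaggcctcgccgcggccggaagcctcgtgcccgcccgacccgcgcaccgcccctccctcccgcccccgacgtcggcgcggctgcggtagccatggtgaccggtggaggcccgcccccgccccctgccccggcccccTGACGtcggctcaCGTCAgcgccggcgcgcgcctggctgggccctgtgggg

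Atf1: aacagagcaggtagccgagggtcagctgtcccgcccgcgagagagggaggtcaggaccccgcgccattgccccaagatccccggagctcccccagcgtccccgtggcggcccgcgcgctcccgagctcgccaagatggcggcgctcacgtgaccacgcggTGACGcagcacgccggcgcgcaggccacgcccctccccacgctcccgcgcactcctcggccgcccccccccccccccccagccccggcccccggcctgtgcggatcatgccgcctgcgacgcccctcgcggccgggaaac

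Crtc1: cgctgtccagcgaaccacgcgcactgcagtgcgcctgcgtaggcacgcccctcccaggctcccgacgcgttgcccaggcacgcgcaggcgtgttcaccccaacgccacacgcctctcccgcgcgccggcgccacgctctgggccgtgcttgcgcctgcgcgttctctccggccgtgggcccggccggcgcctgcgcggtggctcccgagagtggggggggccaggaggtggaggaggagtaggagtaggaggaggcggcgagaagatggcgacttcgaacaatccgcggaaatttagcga

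In Sik2 the matches began at positions -1 and 13 from the start, on opposite strands, and in Atf1 the match began at -90. The windows of Creb1, Crtc3, Ep300 and Crebbp held none.

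Crtc1 was the most abundant of the 10 mRNAs in both regions. In CPM per kilobase of exon, a level set for depth and length, it reached 27.6 ± 2.9 (SD, n = 12 libraries) in the accumbens and 13.8 ± 1.6 in the VTA. Ep300 followed at 11.4 ± 1.7 and 10.7 ± 0.84, and Crebbp at 10.6 ± 0.65 and 8.74 ± 0.79. Crem, at 1.65 ± 0.31 and 1.42 ± 0.26, was the lowest in both regions, and its count joins all transcripts of the gene, including ICER from its inner promoter.

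**Figure D1:**
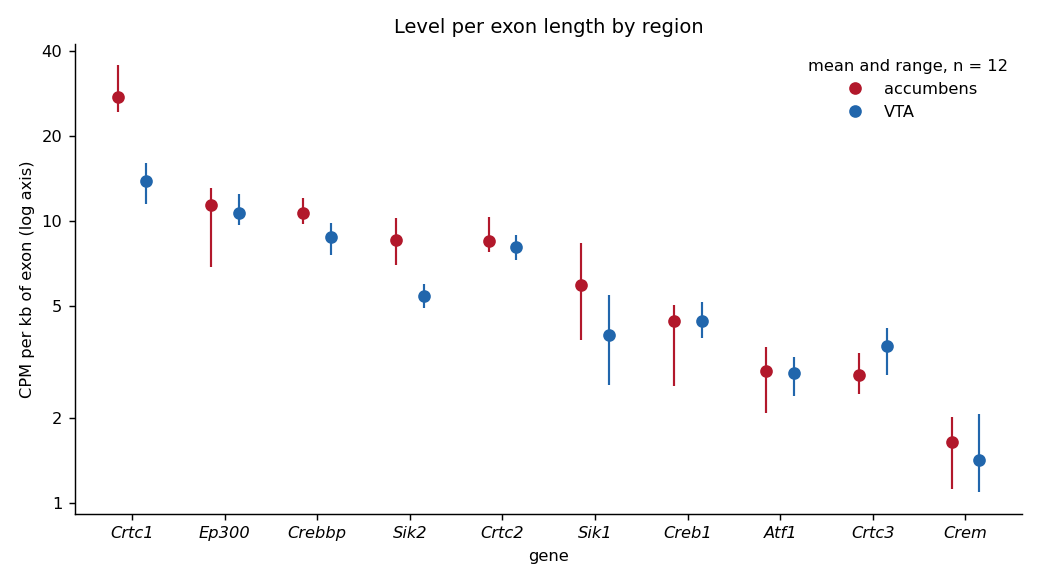
CPM per kilobase of exon (log axis) of each gene in the accumbens and the VTA; points are means and lines the range over 12 libraries a region. Crtc1 stands highest in both regions and Crem lowest, at 1.65 in the accumbens and 1.42 in the VTA.

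The order of the other levels was less firm. In the accumbens the ranges of Crtc1 and Ep300 did not meet, nor did those of Crtc3 and Crem, while every other neighbouring pair overlapped. There Sik2 (8.55 ± 1.2) exceeded Crtc2 (8.5 ± 0.66) in 7 of 12 libraries and Atf1 (2.95 ± 0.43) exceeded Crtc3 (2.85 ± 0.34) in 8 of 12. In the VTA Crtc2 (8.07 ± 0.48) lay clear of Sik2 (5.41 ± 0.36), and Atf1 (2.89 ± 0.24) lay clear of Crem. Creb1 was at 4.41 ± 0.66 and 4.42 ± 0.48, with Sik1 above it in the accumbens (5.90 ± 1.7, higher in 10 of 12 libraries) and below it in the VTA (3.95 ± 0.78, lower in 11 of 12).

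The accumbens and the VTA of the same mice differed in 8 of the 10 genes by limma with the mouse as a block (adjusted p under 0.05), where 72.8% of all 16147 genes tested did. 7 were higher in the accumbens and 1 in the VTA. Crtc1, the neuronal CRTC, differed most, by 1.06 ± 0.04 on the log2 scale (SE, adjusted p = 1.3e-10), and was higher in the accumbens of 12 of 12 mice. Both kinases were also higher there in 12 of 12 mice, Sik2 by 0.71 ± 0.04 (adjusted p = 5.6e-10) and Sik1 by 0.61 ± 0.07 (adjusted p = 2.1e-06). So was Crebbp, by 0.35 ± 0.03 (adjusted p = 2.9e-07).

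Smaller differences completed the set. Crem was higher in the accumbens by 0.27 ± 0.07 (adjusted p = 0.0022) and Crtc2, the form best known from liver, by 0.14 ± 0.04 (adjusted p = 0.0058), each in 11 of 12 mice. Crtc3 went the other way and was higher in the VTA by 0.28 ± 0.05 in 11 of 12 mice (log2 accumbens minus VTA -0.28, adjusted p = 0.00015). Ep300 differed by 0.14 ± 0.06 (adjusted p = 0.045), a call that was lost when any 1 of 11 mice was left out and under 4 of the 8 other settings. Without mouse 2, whose accumbens library stood apart, the Ep300 difference was 0.20 (adjusted p = 1.1e-05) and Creb1 was also called, at 0.11 (adjusted p = 0.0039). With all mice Creb1 differed by 0.05 ± 0.06 (95% interval -0.07 to 0.17) and Atf1 by 0.08 ± 0.07 (-0.07 to 0.23).

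**Figure D2:**
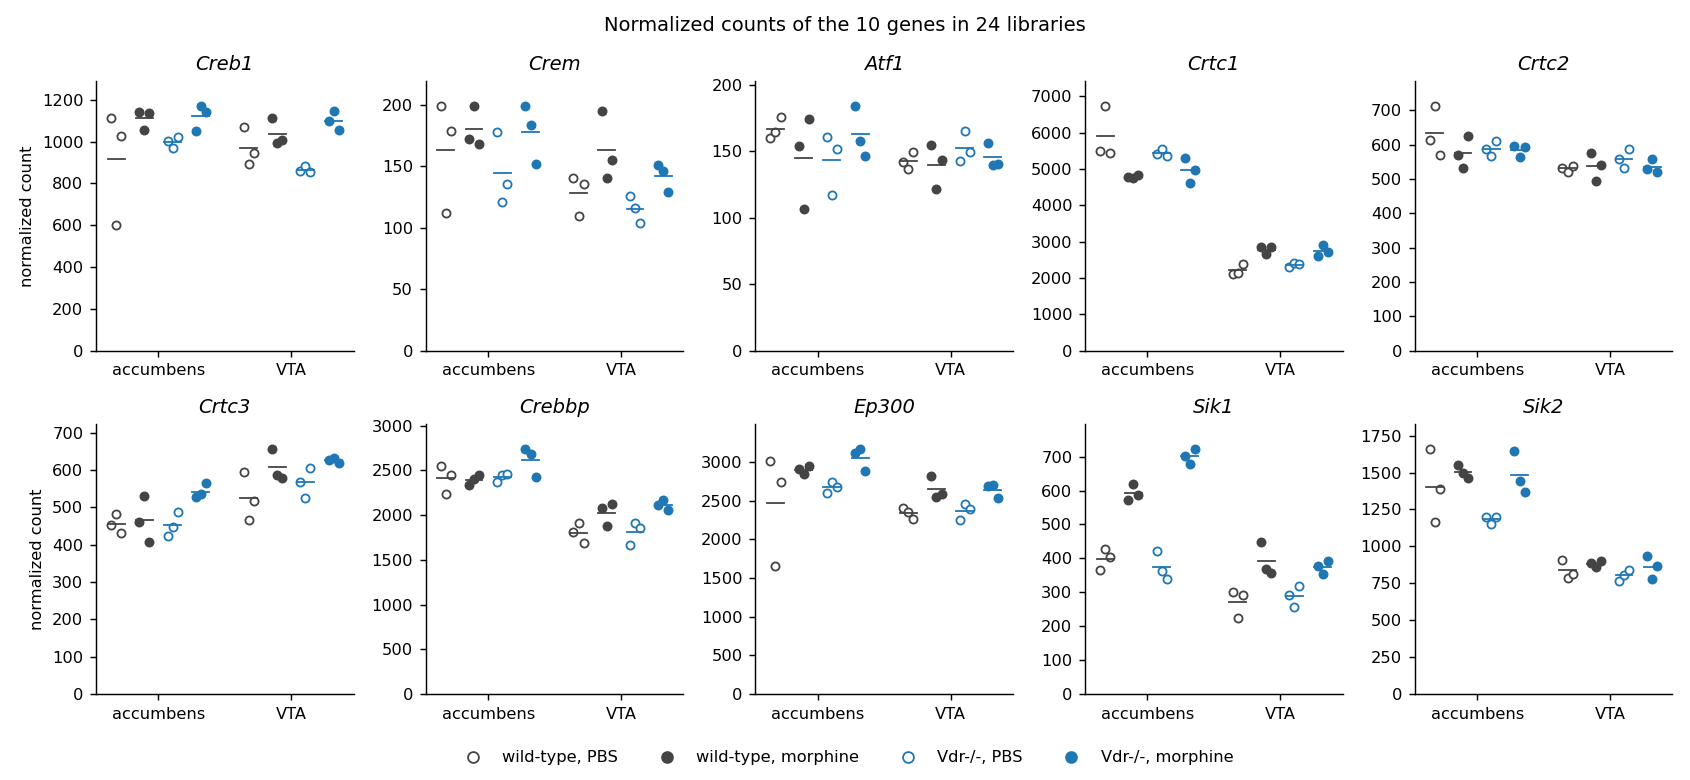
Normalized counts (axes from 0) of the 10 genes in every library, with the 24 libraries scaled together; points are libraries, short lines group means of 3 mice. Crtc1 lies between 4605 and 6747 in the accumbens and between 2121 and 2911 in the VTA, and the low wild-type PBS points of Creb1 (603) and Ep300 (1656) belong to mouse 2.

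Sik1 was higher after morphine in the accumbens of both genotypes. SIK1 is the kinase of the family whose mRNA is quickly induced by cAMP. Its normalized counts were 365, 429 and 403 in the wild-type PBS mice and 571, 618 and 586 in the wild-type morphine mice. In Vdr-/- mice they were 422, 363 and 338 after PBS and 702, 678 and 723 after morphine. No PBS library overlapped a morphine library in either genotype. Here and below, the share of all genes whose groups did not overlap was not counted, so separate groups are only described.

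The log2 fold change of Sik1 was 0.58 ± 0.09 in wild-type (SE, adjusted p = 0.039) and 0.91 ± 0.08 in Vdr-/- mice (adjusted p = 0.00013). The count of members called was 1 of 10 in wild-type mice, where 0.813% of all genes were called, and 4 of 10 in Vdr-/- mice, where 19.1% were. The Vdr-/- call held without each of the 6 libraries in turn. The wild-type call held only without PBS mouse 2, and was lost on leaving out any other library, with adjusted p from 0.0085 to 0.23, although the fold change stayed between 0.53 and 0.63. Over both genotypes the change was 0.75 ± 0.08 (adjusted p = 5.9e-05), and 2 of 10 members were called against 19.9% of all genes.

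The Vdr-/- change in Sik1 exceeded the wild-type change by 0.33 ± 0.12 in the model with an interaction term (95% interval 0.06 to 0.60). Its unadjusted limma p was 0.020 and its adjusted p 0.83, so a difference between genotypes was not called. In that test 0 of 10 members and 0% of all genes passed, also by edgeR and DESeq2, and 1 of 10 members had an unadjusted p under 0.05. Without mouse 2 the limma count of calls was still 0, but 4 of 10 members had an unadjusted p under 0.05: Sik2 at 0.34 (adjusted p = 0.52), Sik1 at 0.28 (adjusted p = 0.61), Ep300 at 0.17 (adjusted p = 0.62) and Crebbp at 0.17 (adjusted p = 0.62). The Ep300 difference turned from -0.10 to 0.17 and that of Creb1 from -0.17 to 0.11.

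Sik2, Crtc3 and Ep300 were the other members called in the accumbens of Vdr-/- mice. Sik2, which encodes a kinase of the family abundant in neurons, had 1198, 1154 and 1199 normalized counts after PBS and 1649, 1440 and 1369 after morphine, a log2 fold change of 0.33 ± 0.07 (adjusted p = 0.0066). The groups did not overlap. Crtc3 rose from 423, 448 and 488 to 528, 535 and 564, by 0.27 ± 0.07 (adjusted p = 0.024). Ep300 rose from 2595, 2747 and 2683 to 3117, 3173 and 2880, by 0.20 ± 0.05 (adjusted p = 0.020). These groups did not overlap either. Creb1 was 0.17 ± 0.06 higher with an adjusted p of 0.054, and Crtc1 0.13 ± 0.06 lower (log2 fold change -0.13) with an adjusted p of 0.12. The other 4 members lay between -0.01 and 0.31, with adjusted p of at least 0.16.

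Leaving out 1 library ended the calls of Crtc3 in 3 of 6 cases (Vdr-/- morphine mice 2.1 and 2.2 and PBS mouse 7) and of Ep300 in 4 of 6 (morphine mice 2.0 and 2.1 and PBS mice 7 and 9). The Sik2 call held in 6 of 6.

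In the wild-type accumbens the same 3 genes were not called. The wild-type PBS values of Sik2, at 1661, 1163 and 1391 counts, spanned the morphine values of 1550, 1498 and 1461. Creb1 and Ep300 fell apart into 1 low and 2 high PBS libraries. Creb1 had 1112, 603 and 1028 counts after PBS and 1143, 1054 and 1137 after morphine, and Ep300 had 3014, 1656 and 2737 against 2905, 2851 and 2955, with mouse 2 the low value in both. Without that library the log2 fold change of Creb1 was 0.06 instead of 0.34, that of Ep300 0.02 instead of 0.29, and that of Crem -0.06 instead of 0.19. The 8 wild-type members with an unadjusted p of at least 0.05 lay between -0.22 and 0.34, with adjusted p of at least 0.46.

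The differences in Crtc1 between morphine and PBS mice ran in opposite directions in the regions. In the accumbens its normalized counts were 5509, 6747 and 5445 in wild-type PBS mice and 4781, 4757 and 4844 in wild-type morphine mice. In Vdr-/- mice they were 5405, 5561 and 5368 after PBS and 5307, 4605 and 4986 after morphine. Every morphine library lay below every PBS library.

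In the VTA the wild-type counts of Crtc1 were 2121, 2129 and 2398 after PBS and 2842, 2665 and 2846 after morphine. The Vdr-/- counts were 2317, 2405 and 2383 after PBS and 2602, 2911 and 2705 after morphine. Here every morphine library lay above every PBS library, so the 2 regions lay closer together in morphine mice than in PBS mice.

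**Figure D3:**
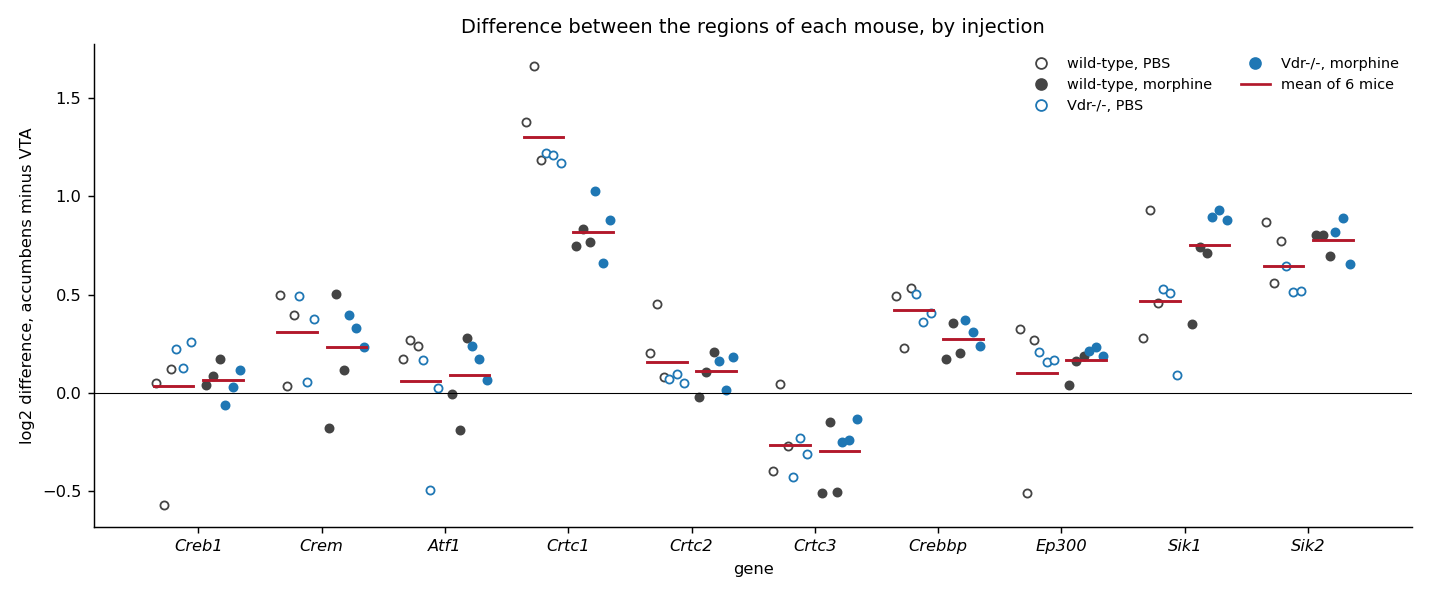
Log2 difference of normalized counts between the accumbens and the VTA of each mouse, for PBS (open) and morphine (filled), with the mean of 6 mice per injection in red; 0 means equal. The Crtc1 difference lies between 1.17 and 1.66 after PBS and between 0.66 and 1.03 after morphine, without overlap.

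Over both genotypes Crtc1 fell by 0.20 ± 0.06 on the log2 scale in the accumbens (adjusted p = 0.025) and rose by 0.26 ± 0.04 in the VTA (adjusted p = 0.0013). The accumbens call was lost without any of wild-type morphine mice 1.0 and 1.1 or Vdr-/- morphine mouse 2.1 (adjusted p up to 0.064) and under quantile normalization (adjusted p = 0.12). It held without mouse 2, where the change was -0.15 (adjusted p = 0.0094). Within a single genotype the accumbens change was not called, with -0.28 ± 0.10 in wild-type (adjusted p = 0.22). That value was -0.19 without mouse 2, and the Vdr-/- value of -0.13 was -0.08 without morphine mouse 2.1. The VTA call held without each of the 12 libraries.

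The difference between the regions' responses was tested within mice. It was -0.48 ± 0.09 for Crtc1 (accumbens minus VTA, adjusted p = 0.0056), held without each of the 12 mice (-0.54 to -0.41) and under the 8 other settings (-0.48 to -0.41), and was the only call among the 10 members, where 12.4% of all genes were called. Without mouse 2 there were 3 calls, the others being Sik1 at 0.40 (adjusted p = 0.029) and Crebbp at -0.18 (adjusted p = 0.043). With all mice Sik1 was at 0.29 ± 0.14 (adjusted p = 0.19) and Crebbp at -0.15 ± 0.06 (adjusted p = 0.15), and the other 7 lay between -0.08 and 0.13.

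Region-specific genes as a class moved in the same manner. Of the 1129 genes that were at least 1 log2 unit higher in the accumbens, as Crtc1 was, 81.0% had a negative difference between the regions' responses, with a median of -0.37. Of the 1083 genes at least 1 unit higher in the VTA, 16.9% did, with a median of 0.39. In the 10791 genes within 0.5 units of equal the share was 51.6%. Called negative were 26.3% of the 1129 genes, 0.554% of the 1083 and 3.72% of the 10791.

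Cell type markers moved with the injection as well. In the accumbens all 8 medium spiny neuron markers were lower after morphine (median log2 fold change -0.65 over both genotypes), with sums of 52763 to 70738 after PBS and 33475 to 47858 after morphine. All 7 dopamine neuron markers were lower in the VTA (median -1.95), with sums of 36547 to 46026 in wild-type PBS, 2904 to 8345 in wild-type morphine, 7517 to 34725 in Vdr-/- PBS and 8619 to 17482 in Vdr-/- morphine libraries. All 6 oligodendrocyte markers were lower in the VTA (median -0.67), from sums of 194282 to 216357 down to 97228 to 167006. Microglial markers were lower in 5 of 5 cases in the VTA and 3 of 5 in the accumbens, while 4 of 5 astrocyte markers were higher in the accumbens. In punches, fewer cells of a type and less RNA per cell cannot be told apart, and the part of these shifts in the values of Crtc1 or any other member was not tested.

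**Figure D4:**
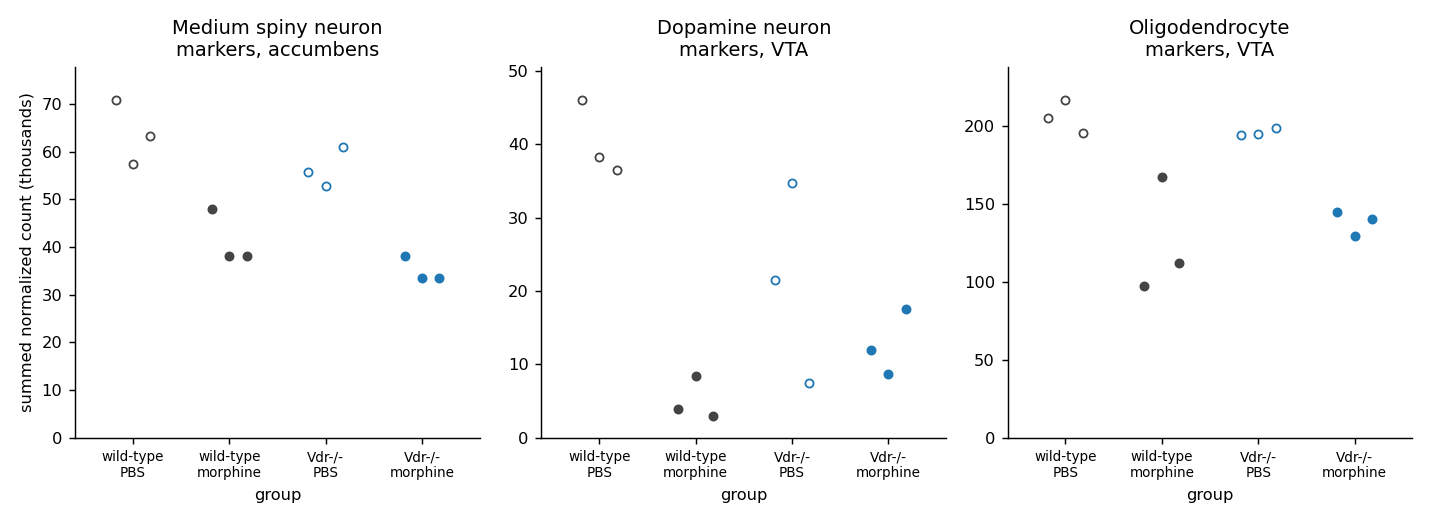
Summed normalized counts of the medium spiny neuron markers in the accumbens and of the dopamine neuron and oligodendrocyte markers in the VTA; each point is 1 library. Morphine libraries lie below all PBS libraries in the outer panels, and Vdr-/- PBS mouse 9 (7517 counts) lies among the morphine libraries for dopamine neuron markers.

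In the VTA 6 of the 10 members were higher after morphine over both genotypes, and 29.7% of all 16240 genes were called. Beside Crtc1 these were Sik1, Crebbp, Ep300, Creb1 and Crem, and none of the 10 was called lower. Sik1 had 301, 224 and 293 normalized counts in wild-type PBS and 447, 369 and 357 in wild-type morphine mice, and 292, 255 and 317 against 377, 355 and 392 in Vdr-/- mice. The increase was 0.45 ± 0.09 on the log2 scale (adjusted p = 0.0034), and within each genotype no libraries of the 2 injections overlapped.

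The acetyltransferases rose by less. Crebbp went from 1810, 1912 and 1692 counts to 2078, 1878 and 2127 in wild-type and from 1670, 1911 and 1852 to 2117, 2164 and 2055 in Vdr-/- mice, a log2 fold change of 0.19 ± 0.05 (adjusted p = 0.0087). Ep300 went from 2404, 2354 and 2267 to 2826, 2548 and 2592 and from 2248, 2459 and 2389 to 2690, 2699 and 2531, a change of 0.16 ± 0.04 (adjusted p = 0.0063). The wild-type groups overlapped for Crebbp and did not for Ep300.

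Among the transcription factors Creb1 changed by 0.21 ± 0.06 (adjusted p = 0.018) and Crem by 0.31 ± 0.10 (adjusted p = 0.030). Crem is the least abundant member, with 88 to 237 reads per VTA library, and its call was lost without any 1 of 5 libraries (Vdr-/- morphine mice 2.0 and 2.1, Vdr-/- PBS mouse 9, wild-type morphine mouse 1.0 and wild-type PBS mouse 2). The calls of the other 5 held without each of the 12 libraries, Vdr-/- PBS mouse 9 with its low dopamine neuron markers included. Crtc3 was at 0.17 ± 0.06 with an adjusted p of 0.051. Atf1, Crtc2 and Sik2 lay between -0.06 and 0.08.

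Within single genotypes the VTA tables hold 3 morphine and 2 PBS libraries. In wild-type mice 1 of 10 members was called, where 3.65% of all genes were: Crtc1 at 0.37 ± 0.06 (adjusted p = 0.030). The call was lost without PBS mouse 1, PBS mouse 2 or morphine mouse 1.2. Sik1 was at 0.56 ± 0.16 (adjusted p = 0.10), at 0.35 without PBS mouse 2 and at 0.78 without PBS mouse 1.

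In the VTA of Vdr-/- mice 2 of 10 members were called, where 10% of all genes were. Creb1 rose from 859 and 856 counts in PBS mice 7 and 9 to 1099, 1149 and 1054, a log2 fold change of 0.35 ± 0.06 (adjusted p = 0.017). Crebbp rose by 0.25 ± 0.06 (adjusted p = 0.040). Leaving out either PBS library left no call. PBS mouse 8, absent from that table, had 885 counts of Creb1 and 1911 of Crebbp. With it the Creb1 call stayed and the Crebbp call was lost. Sik1 (0.29 ± 0.08), Crtc1 (0.21 ± 0.06) and Ep300 (0.18 ± 0.05) had adjusted p of 0.064, 0.063 and 0.075.

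**Figure D5:**
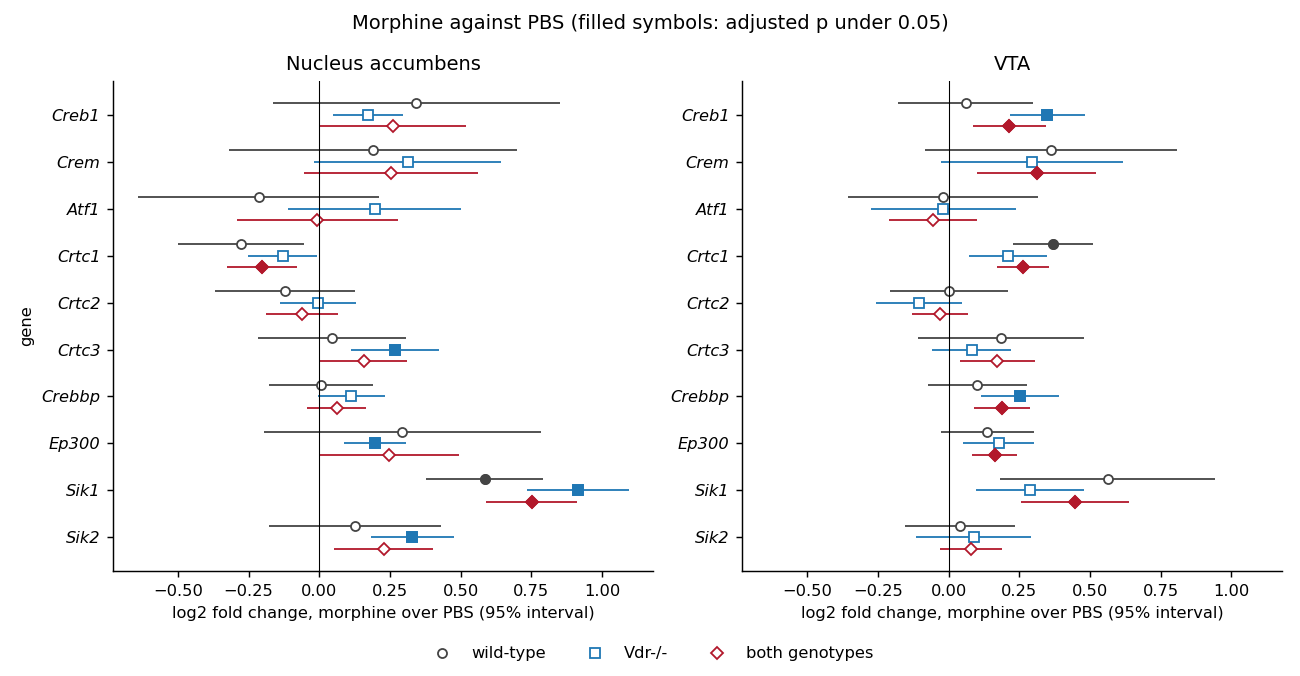
Log2 fold change of morphine over PBS with 95% intervals for the 10 genes in the accumbens and in the VTA, in wild-type mice, in Vdr-/- mice and over both genotypes; filled symbols have an adjusted p under 0.05. Sik1 lies right of 0 in all 6 estimates (0.29 to 0.91), and Crtc1 lies left of 0 in the accumbens and right of 0 in the VTA.

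The genotypes' responses in the VTA were not distinguished in any member (0 of 10 called by limma, edgeR and DESeq2, where 0.0553% of all genes were called by limma). This test had 3 morphine and 2 PBS libraries in each genotype. The 1 member with an unadjusted p under 0.05 was Creb1, with a difference of 0.29 ± 0.12 (95% interval 0.02 to 0.55, adjusted p = 0.38). It was 0.15 without wild-type PBS mouse 1 and 0.42 without wild-type PBS mouse 2.

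No member differed between Vdr-/- and wild-type mice at the adjusted threshold in any of the 4 direct comparisons. The share of all genes called was itself low, with 0.069% in the accumbens after PBS, 0.192% in the accumbens after morphine, 0.39% in the VTA after PBS and 0.0624% in the VTA after morphine. edgeR and DESeq2 also called 0 of the 10 members in each. The number of members with an unadjusted p under 0.05 was 0, 3, 0 and 0 in the same order.

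The 3 were in the accumbens after morphine. Sik1 was 0.25 ± 0.06 higher in Vdr-/- mice (95% interval 0.11 to 0.38), with all 3 Vdr-/- libraries (678 to 723 counts) above all 3 wild-type libraries (571 to 618). Its unadjusted limma p was 0.0025 and its adjusted p 0.30, with adjusted p from 0.27 to 0.85 over the other settings and left-out libraries. How many of all genes had separate groups in this comparison was not counted. Crtc3 was 0.22 ± 0.09 higher (adjusted p = 0.61), and 0.13 without wild-type morphine mouse 1.2 or 0.32 without 1.1. Crebbp was 0.13 ± 0.06 higher (adjusted p = 0.63). The remaining 7 lay between -0.02 and 0.19. After PBS Sik1 did not show this order, with 338 to 422 counts in Vdr-/- against 365 to 429 in wild-type mice.

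After PBS the accumbens differences ran from -0.22 to 0.19. The 95% intervals differed between genes, from -0.16 to 0.20 for Crebbp and -0.19 to 0.21 for Crtc3 up to -0.33 to 0.71 for Creb1, -0.33 to 0.68 for Ep300 and -0.71 to 0.44 for Crem. Without mouse 2 Creb1 turned from 0.19 to -0.10 and Ep300 from 0.17 to -0.10, and the highest difference was 0.04. Sik2 was then 0.36 lower in Vdr-/- mice (log2 difference -0.36, adjusted p = 0.14 by limma) and Crem 0.40 lower (log2 difference -0.40, adjusted p = 0.35). Still 0 of 10 were called. In the VTA the differences ran from -0.16 to 0.11 after PBS and from -0.18 to 0.09 after morphine. Over both injections 0 of 10 members were called in the accumbens, where 0.374% of all genes were, and 0 of 10 in the VTA, where 0.597% were, with no member at an unadjusted p under 0.05 and 0 called by edgeR or DESeq2. Without mouse 2 the accumbens difference of Sik2 over both injections was -0.17 with an unadjusted limma p of 0.028 and an adjusted p of 0.30. The difference between regions in the effect of genotype was called for 0 of 10 members and 0% of all genes, also by edgeR and DESeq2.

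The members not called with morphine or genotype in any comparison were Atf1, a close relative of CREB1, and Crtc2. Atf1 had 167 ± 8.2 normalized counts in wild-type PBS, 145 ± 35 in wild-type morphine, 143 ± 23 in Vdr-/- PBS and 163 ± 19 in Vdr-/- morphine libraries of the accumbens (SD, n = 3 a group). In the VTA the same groups had 142 ± 6.2, 140 ± 17, 152 ± 12 and 145 ± 9.3. Crtc2 had 633 ± 73, 575 ± 47, 588 ± 21 and 584 ± 17 in the accumbens and 531 ± 8.8, 537 ± 41, 559 ± 29 and 537 ± 19 in the VTA. On the scale of all 24 libraries, those of PBS and morphine mice overlapped for both genes in each genotype and region. In the Vdr-/- VTA test, which lacked PBS mouse 8, the Crtc2 groups did not overlap. There Crtc2 had 610 ± 22 counts in 3 morphine and 656 ± 25 in 2 PBS libraries.

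For Crem the accumbens means were 163 ± 45, 180 ± 17, 145 ± 30 and 178 ± 24 in the same order, and the VTA means 128 ± 17, 163 ± 28, 115 ± 11 and 142 ± 12. The morphine mean was the higher in all 4 pairs, and the libraries of the 2 injections overlapped in 3 of them. Crtc3 had 526 ± 65, 607 ± 43, 566 ± 41 and 626 ± 6.3 in the VTA.

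Genes around the members gave the setting of these changes. Their lists were chosen with earlier results of these data known, so the counts only describe. The list of 35 known CREB targets, which shares no gene with the members, had 19 higher and 6 lower in the accumbens of Vdr-/- mice after morphine, where 19.1% of all genes were called in either direction, with a median log2 fold change of 0.37 against -0.01 over all genes tested. The 4 with the widest change were Gem (1.72 ± 0.32), a small GTP-binding protein, Inhba (1.36 ± 0.13), an activin subunit, the nuclear receptor Nr4a3 (1.30 ± 0.19) and the synaptic gene Arc (1.28 ± 0.17). In wild-type mice 1 target rose, the AP-1 gene Fosl2 at 0.82 ± 0.12, beside 0.813% of all genes called, and the median was 0.16 against 0.01. The genotypes' responses were not shown to differ by these counts. The target list also holds Pde10a, 1 of the medium spiny neuron markers.

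In the VTA 6 of 34 tested targets rose and 1 fell in wild-type mice (median 0.36), and 10 rose and 1 fell in Vdr-/- mice (median 0.28), both against a median near 0 over all genes. Of all genes 3.65% and 10% were called in these comparisons. Over both genotypes the widest were the opioid precursor gene Pdyn (2.23 ± 0.52), Nptx2 (1.86 ± 0.41), Fosb (1.19 ± 0.13) and Vgf (0.75 ± 0.12). Pdyn and Penk, both neuropeptide genes of medium spiny neurons, were also among the targets whose responses differed most between regions, at -2.46 ± 0.48 and -1.02 ± 0.12. No target was called between the genotypes in any of the 4 direct comparisons.

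The 21 upstream kinases and the SIK activators moved in both directions. In the accumbens over both genotypes 2 were higher and 4 lower after morphine, beside 19.9% of all genes called, including Camkk2 (-0.32 ± 0.06), Mapk3 (-0.29 ± 0.06) and Camkk1 (-0.26 ± 0.05) and the kinase A regulatory subunit Prkar2a (0.30 ± 0.05). In the VTA 8 were higher and 3 lower, beside 29.7% of all genes, with the catalytic subunit Prkacb at 0.28 ± 0.05. Camkk2 had a negative difference between the regions' responses, as Crtc1 did, of -0.47 ± 0.09, and 5 of the 21 kinases were called negative and 0 positive, beside 12.4% of all genes called.

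Of the 14 inhibitors, phosphatases and 14-3-3 and class IIa histone deacetylase genes, 2 were higher and 5 lower in the accumbens and 6 higher and 3 lower in the VTA over both genotypes, where 19.9% and 29.7% of all genes were called. The accumbens changes included Ppp1r1b (-0.84 ± 0.07), which encodes DARPP-32 and is also 1 of the medium spiny neuron markers, and the calcineurin subunit Ppp3ca (-0.48 ± 0.05), and the kinase A inhibitor Pkib (0.55 ± 0.10). Calcineurin dephosphorylates the CRTCs. Of the 17 relatives of CREB and of the SIKs, 1 was higher and 1 lower in the accumbens, Atf4 (0.27 ± 0.05) and Mark2 (-0.26 ± 0.05), and 2 were higher and 1 lower in the VTA, the last being Creb5 (-0.95 ± 0.14), against the same 19.9% and 29.7% of all genes. Atf4, the transcription factor of the amino acid and stress responses, was the 1 relative called between genotypes: it was lower in Vdr-/- mice in the VTA (-0.40 ± 0.05, adjusted p = 0.0024) and the accumbens (-0.27 ± 0.05, adjusted p = 0.040) over both injections, where 0.597% and 0.374% of all genes were called.

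The genes whose pattern over the 12 libraries of a region was most like Sik1 were Plxna1, 1810041L15Rik, Aldh1a3, Rnf128 and Irs2 in the accumbens (Pearson's r 0.950 to 0.965 among 15786 genes) and Zc3h11a, Lrrc43, Plekhg4, Trip4 and Vps45 in the VTA (0.933 to 0.960 among 16240 genes). For Crem they were Ift172, Avil, Hnrnpll, Pde7a and Zfp760 in the accumbens (0.900 to 0.956) and Fgd1, Kctd10, Lrrc8c, Rgs2 and Nktr in the VTA (0.907 to 0.946). The 12 libraries share injection groups and punches, and no gene stood in the lists of both regions.

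By position in GRCm38 (GENCODE M21), Sik1 lies on chromosome 17 from 31844250 to 31855804 and Crtc1 on chromosome 8 from 70382355 to 70439579, and neither overlaps another annotated gene. Sik2, on chromosome 9 from 50892801 to 51009073, overlaps the protein-coding gene Ppp2r1b on the other strand. Crem, Crtc3, Crebbp and Ep300 overlap predicted genes. The strand setting of the counting is not given in the sources used here, so reads of such pairs may not be told apart, which makes the Sik2 values uncertain to that extent.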

How the data were processed

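Total RNA was sequenced as directional paired-end libraries. The submitters' notes name CASAVA 1.8, Trimmomatic 0.36 and STAR 2.4.2a, and the study's methods name DESeq2 and GENCODE GRCm38. The deposited values are counts that the authors normalized with DESeq2 within each of 8 tables of 2 groups (46 library columns, a signal unit without stated depth). Values divided by their smallest step gave whole reads for 100% of values (tolerance 0.01), and the 22 libraries present in 2 tables gave the same reads in both for all genes the tables share. For 1 of them, wild-type morphine VTA mouse 1.1, the reads were taken from 1 table only. Of 30270 gene IDs, 30204 (99.8%) were in GENCODE M21.

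The main test was limma 3.58.1 with a variance trend on log2(value + 1), for genes with a mean of at least 10, adjusted by Benjamini-Hochberg with a threshold of 0.05. A fold change on this scale understates that of low genes. The 4 genotype comparisons and the 4 morphine comparisons were fitted within their table. The tests of the genotypes' responses to morphine joined the values of a region's morphine tables, so in the VTA they had 2 PBS libraries a genotype. The rest of the 17 comparisons used the recovered reads of a region, or of all 24 libraries, scaled together. The region comparisons kept the mouse as a block. Printed counts per library are on the scale of all 24 libraries. Replicates were separate mice, and no pair of libraries of a group agreed within sampling noise (chi-square per degree of freedom 3.99 to 34.5). VTA tables against PBS lack wild-type mouse 3 and Vdr-/- mouse 8. Alternatives were edgeR 4.0.16 and DESeq2 1.42.0 on recovered reads, a pseudocount of 8, a minimum mean of 50 or none, no variance trend, quantile normalization, all 3 PBS libraries in the VTA and leaving out each library. The fits were tested on simulated data. R 4.3.3 and Python 3.11.15 were used.

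The members, gene lists and tests were chosen with earlier results of these data known. Every member is given by its level. A member's fold change is given singly where its unadjusted limma p in a comparison was under 0.05 and otherwise mostly as a range, and from each list at most 4 genes past the adjusted threshold with the widest change are named in a comparison. The 5 genes most like Sik1 and Crem were taken by Pearson's r. The morphine mice carry numbers with the same last digit in both genotypes. The deviations of such pairs from their group means correlated at -0.06 to -0.03 in the accumbens and -0.26 to -0.12 in the VTA, so the last digits were not taken to pair mice. Accumbens and VTA libraries with the same full number correlated in this measure at -0.07 to 0.17, which does not show that they came from 1 mouse. They were still taken as 1 mouse in the region comparisons.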

Additional observations from a re-analysis of the deposited data

Results flagged for a closer look

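Crtc1 was marked because its change with the injection differed between the regions of the same mice by a test of the difference itself. It was the 1 of 10 members called in that test, where 12.4% of all genes were called. Of the genes at least 1 log2 unit higher in the accumbens, as Crtc1 was, 26.3% were called negative. The difference between the regions' responses was -0.48 on the log2 scale (accumbens minus VTA, adjusted p = 0.0056 by limma), from a change of -0.20 in the accumbens and 0.26 in the VTA. The accumbens-to-VTA difference was lower in all 6 morphine mice (0.66 to 1.03) than in all 6 PBS mice (1.17 to 1.66). The medium spiny and dopamine neuron marker sums moved with the injection too, and their part in it was not tested. Groups held 3 mice, so single libraries were not tested as outliers.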

How the results depend on the processing

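Each count of members called was recomputed under the alternatives, and 255 of 279 values stayed within 1.5 times the main count. The 279 include comparisons with a main count of 0, such as the 4 direct genotype comparisons. Their share therefore does not measure how firm the calls were. Members with an unadjusted p under 0.05 in a comparison gave 683 alternative values. None of these log2 fold changes reversed its sign, 55 lost a call and 11 gained one. The 683 include members without a call in the main test, so the 55 are not a share of calls. Among the other values 119 changed sign, all from a size of at most 0.19, 20 of them without mouse 2. Examples there were Creb1 between genotypes in the accumbens after PBS (0.19 to -0.10) and Crem after morphine in the wild-type accumbens (0.19 to -0.06). In the wild-type accumbens the call of 1 member fell to 0 without the variance trend and ranged from 0 to 1 when libraries were left out. In the Vdr-/- accumbens the 4 calls became 1 without the trend and 2 to 4 when libraries were left out. In the wild-type VTA 1 call became 0 without the trend and 0 to 1 when libraries were left out. In the Vdr-/- VTA 2 calls became 1 without the filter on the mean, 0 without the trend, 1 with all 3 PBS libraries, and 0 to 3 when libraries were left out. Over both genotypes in the accumbens 2 calls became 1 under quantile normalization and 1 to 3 when libraries were left out. For the difference between the regions' responses 1 call became 1 to 3 when mice were left out. Their causes were not tested. With the replicate block by the last digit of the mouse number the genotype comparisons after morphine still called 0 of 10 members in each region, and without the replicate block for mice the region comparison called 7 instead of 8. With 3 mice a group, the widest 95% intervals in the accumbens after PBS were those of Creb1 (-0.33 to 0.71) and Crem (-0.71 to 0.44), against -0.16 to 0.20 for Crebbp.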
